A study of Homo sapiens with 12 samples.

Results

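A set of 9 genes of the extracellular insulin-like growth factor (IGF) system was followed in IMR90 cells, a primary human lung fibroblast line: the IGF binding proteins IGFBP2, IGFBP3, IGFBP4, IGFBP5, IGFBP6 and IGFBP7, the protease pappalysin 1 (PAPPA), and the stanniocalcins STC1 and STC2. The genes were taken by symbol, and all 9 of 9 were found among the 61541 gene identifiers of the deposited tables and passed the filter on low counts. There were 4 groups of 3 libraries, 12 in all: cells on plastic or on a gel of 2 kPa, a soft substrate, each given 100 nM or 250 nM doxorubicin. Every group was wild type and received doxorubicin, a DNA-damaging drug, for 24 h, after which the cells were kept for at least 8 days to become senescent. No library from untreated, proliferating or quiescent cells was analysed here, so levels are compared between substrates and doses and not with undamaged cells. The labels name a hydrogel in one place and PDMS-coated plates in another, and give the doses in nM in the titles and in µM in a protocol. Both are called here as in the titles.

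IGFs are bound outside the cell by the binding proteins, which hold them away from the IGF receptor and carry them through tissue and blood. PAPPA is a secreted metalloprotease that cuts IGFBP4 and IGFBP5 and so releases bound IGF, and both stanniocalcins are secreted glycoproteins that bind PAPPA and block its cutting. Several binding proteins, among them IGFBP3, IGFBP5 and IGFBP7, and also the stanniocalcins, are known parts of what senescent fibroblasts secrete. These data are messenger RNA levels, so neither secreted protein nor PAPPA activity was measured.

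Of the 9 genes, IGFBP5 fell and STC1 rose on gel, and the other members did not pass the test in the comparison averaged over doses. IGFBP5 was 1.95-fold lower on gel at 100 nM and 2.00-fold lower at 250 nM, with tightly grouped libraries in all 4 groups. STC1 was 4.10-fold higher on gel at 100 nM and 1.83-fold higher at 250 nM. Both genes passed the test at 100 nM and in the average, and neither passed at 250 nM alone. The collagen genes COL1A1, COL1A2 and COL3A1, which are fibroblast markers, were also called lower on gel at 100 nM, and their part in the results for IGFBP5 and STC1 was not tested. STC2, which shares the role of PAPPA inhibitor with STC1, did not pass in any comparison.

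IGFBP5 (ENSG00000115461) lies on the minus strand of chromosome 2 at 216672105 to 216695525, next to IGFBP2 (ENSG00000115457) at 216632828 to 216664436 on the plus strand (GENCODE 29, GRCh38). IGFBP4 (ENSG00000141753) lies on chromosome 17 at 40443461 to 40457731, PAPPA (ENSG00000182752) on chromosome 9 at 116153804 to 116402322, and STC2 (ENSG00000113739) on chromosome 5 at 173314713 to 173329503. For sequence, IGFBP5 was taken because its level fell on gel, and IGFBP4 because it is also a PAPPA substrate and did not pass the test. PAPPA was taken as the protease that links them. The 100 bases before the RefSeq start site (GRCh38.p14) are shown for these 3 genes. Each is read 5′ to 3′ on the gene's strand, and capitals mark a TATA-box-like run.
IGFBP5, chr2:216695550-216695649, minus strand: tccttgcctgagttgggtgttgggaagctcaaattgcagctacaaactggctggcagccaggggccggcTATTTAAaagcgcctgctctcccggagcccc
IGFBP4, chr17:40443350-40443449, plus strand: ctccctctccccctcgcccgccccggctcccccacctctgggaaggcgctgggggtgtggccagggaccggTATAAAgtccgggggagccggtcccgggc
PAPPA, chr9:116153691-116153790, plus strand: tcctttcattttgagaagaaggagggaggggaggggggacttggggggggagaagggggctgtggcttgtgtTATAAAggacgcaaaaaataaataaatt
The marked runs begin 31 bases before the start of IGFBP5, 29 bases before IGFBP4 and 28 bases before PAPPA. The spellings searched, on both strands, were TATAAA and also TATTTAA as well as TATATA, which can overlap one another and were chosen with these sequences in view. At least 1 of them occurred in 7.4% of 35116 RefSeq promoters of the same length (4.99% held TATAAA and 1.47% held TATTTAA while 1.65% held TATATA). IGFBP3 had TATATA beginning 30 bases before its start, and the windows of IGFBP6 and STC2 held none of the 3. The windows of IGFBP3, IGFBP6 and STC2 lie inside the GENCODE spans of their genes, as the RefSeq start used lies downstream of the GENCODE start. These letters are a description of the windows. IGFBP5, whose level fell on gel, and IGFBP4, whose level did not pass the test, both have such a run.

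Depth differed between the doses, with 5887056 to 7351916 counts per library at 100 nM and 2229069 to 2730309 at 250 nM, and the 250 nM libraries were a separate set by their file names, so dose and library set cannot be told apart. Nothing in the labels says that the 3 libraries of a group came from separate cultures, so p-values measure the spread between these libraries, which may be technical. Replicate 1 of plastic at 100 nM and replicate 1 of gel at 250 nM stood apart: 3 ribosomal DNA loci took 14.34% and 13.17% of their counts, against 24.19% to 30.72% in the other libraries. The gel library also had a mitochondrial share of 8.11% of protein-coding counts (2.58% to 5.12% in the others) and a level that rose by 0.46 log2 units per 10 points of gene GC content, against -0.18 to 0.10 in the others. All 12 fibroblast markers were tested and present, led by FN1 (mean 2698 TPM) and VIM (1178 TPM). Of them 5 were called lower on gel at 100 nM (COL1A1, COL1A2, COL3A1, DCN and LUM), 1 at 250 nM (COL1A1) and 6 in the average (those 5 and PDGFRB), and 0 were called higher. Their median log2 change was -0.91, -0.70 and -0.88, and their sum was 4929 to 5755 TPM on plastic and 4026 to 5462 TPM on gel at 100 nM, and 4780 to 5371 and 3852 to 4368 TPM at 250 nM. None of 12 leukocyte markers passed the filter (summed 0 to 4.3 TPM a library, 5 at 0 throughout), and 1 of 10 endothelial markers did (summed 1.58 to 12.71 TPM).

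Levels between genes are compared in TPM, each transcript's share of a library corrected for its length. Over the 12 libraries IGFBP7 had the highest mean, 656 TPM, followed by STC1 at 402.5 TPM, STC2 at 200.1, IGFBP3 at 143.9, IGFBP5 at 137.1 and IGFBP4 at 123.6. IGFBP6 (39.99 TPM), PAPPA (23.38 TPM) and IGFBP2 (3.06 TPM) were the lowest. The order of the means differed by substrate. On plastic at 100 nM IGFBP7 led at 739.7 to 1389.8 TPM, clear of the gene after it, and IGFBP3, STC2, IGFBP5, STC1 and IGFBP4 followed with ranges that each overlapped the next. On gel STC1 had the highest mean at both doses, 619 TPM at 100 nM and 528 TPM at 250 nM. Its range overlapped that of IGFBP7 (449 to 673 TPM and 167 to 506 TPM). Within libraries, IGFBP7 lay above STC1 in gel replicates 2 (673 against 390 TPM) and 3 (648 against 551 TPM) at 100 nM. At 250 nM it did so in gel replicate 3 (506 against 482 TPM). In the other gel libraries STC1 was the higher.

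**Figure D1:**
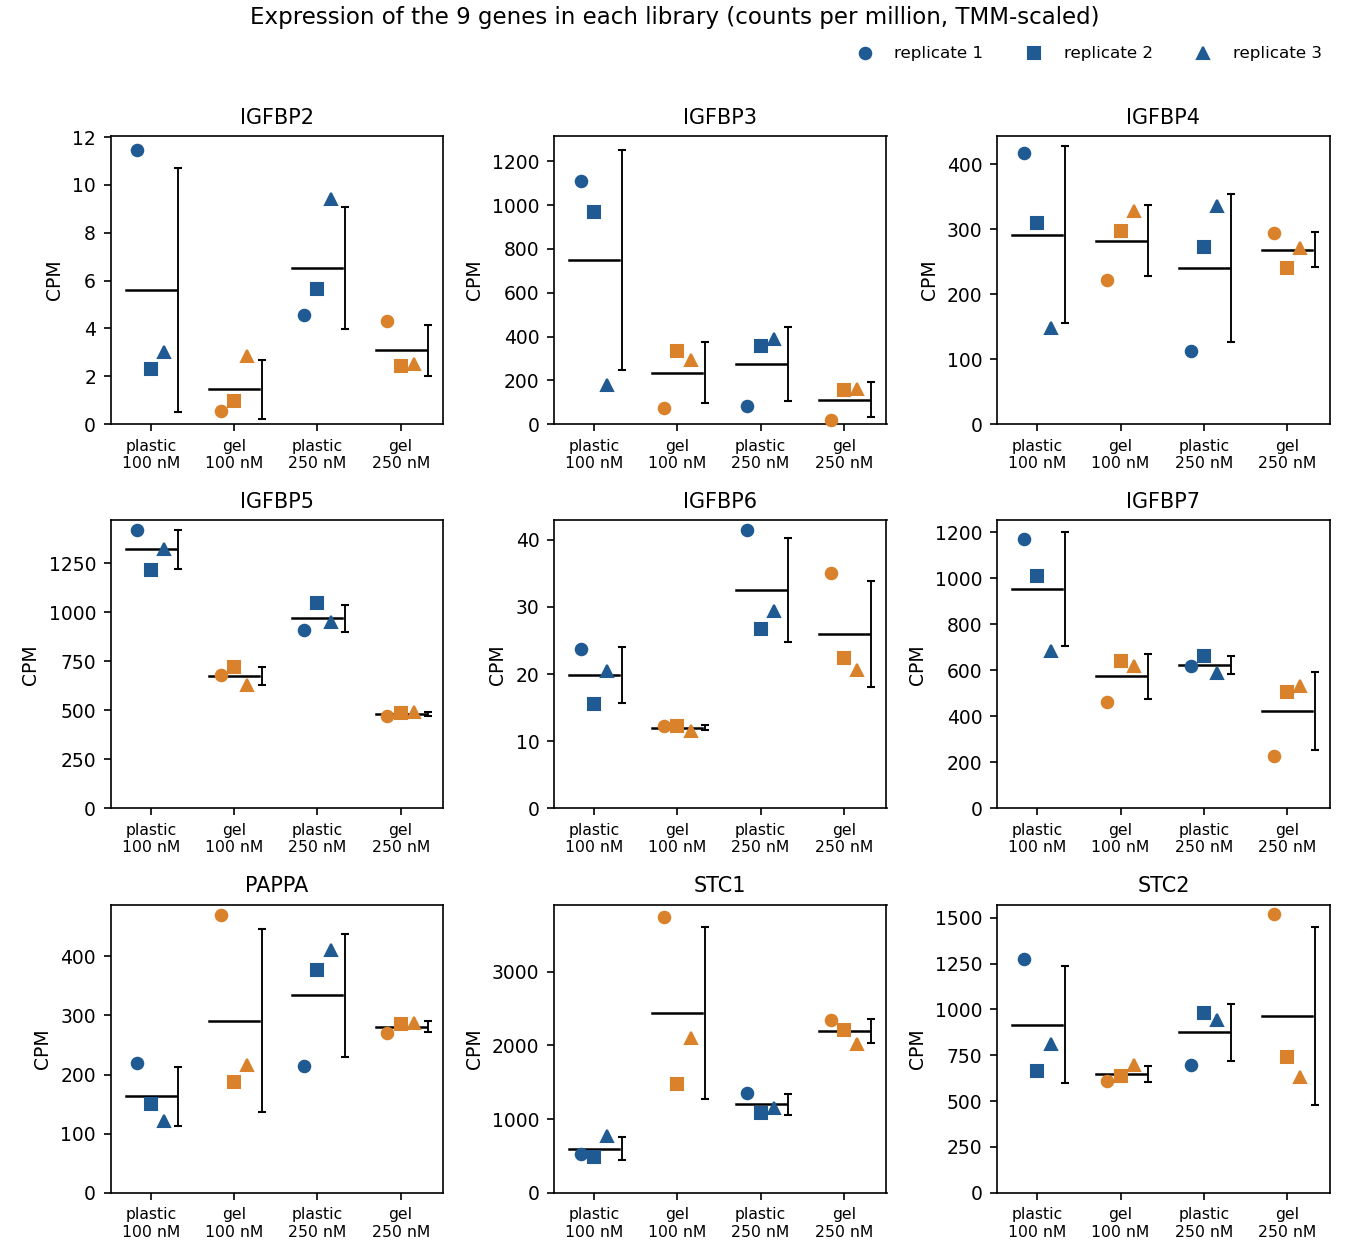
Level of each gene in every library, in CPM, counts scaled to library size (linear axis from 0, a separate scale for each gene), for the 4 groups of substrate and doxorubicin dose. Points are libraries, shaped by replicate number, lines are means and bars are the SD of 3 libraries. IGFBP5 on gel (628 to 719 CPM at 100 nM, 472 to 491 CPM at 250 nM) lies below plastic at each dose, while STC1 on gel lies above it.

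IGFBP5 is a binding protein that is stored in the extracellular matrix and is cut by PAPPA. Its level, in CPM scaled to the effective library size, was 1418, 1217 and 1324 in the 3 plastic libraries at 100 nM and 681, 719 and 628 in the 3 gel libraries. The 250 nM values were 910.0, 1045 and 949 on plastic and 472, 487 and 491 on gel. Every gel library lay below every plastic library, and this held across the doses as well as within them. At 100 nM the mean was 1319.6 ± 101 CPM on plastic and 676 ± 46.1 CPM on gel (SD, n = 3 each), a log2 change of -0.96 (SE 0.16), which passed edgeR's quasi-likelihood test at an adjusted p of 0.0208. The 250 nM means were 968 ± 69.4 and 483 ± 10.2 CPM, a log2 change of -1.0 (SE 0.16), which did not pass (edgeR adjusted p = 0.065). The sizes at the 2 doses differed by -0.04 on the log2 scale (95% interval -0.51 to 0.43, edgeR adjusted p = 0.971). Averaged over doses, IGFBP5 was 1.98-fold lower on gel (log2 change -0.98, SE 0.11, edgeR adjusted p = 0.000748), and it was called in 28 of 28 settings tried.

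The calls of IGFBP5 within a dose were less stable than its size. At 100 nM it was called in 18 of 29 settings, with log2 changes between -1.04 and -0.90, and leaving out any 1 of the 6 libraries compared ended the call (edgeR adjusted p from 0.062 to 0.179). So did leaving out replicate 2 or 3 of plastic or replicate 3 of gel at 250 nM (0.0502 to 0.0569). At 250 nM it was called in 6 of 29 settings, among them the one without replicate 1 of gel (log2 change -1.0, edgeR adjusted p = 0.0371).

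IGFBP7, a low-affinity IGF binder found in vessel walls and matrix and the most abundant binding protein transcript here, gave 1171, 1009 and 685 CPM on plastic and 461, 642 and 619 on gel at 100 nM. At the higher dose it gave 618, 664 and 587 CPM on plastic and 229.6, 507 and 533 on gel. The gel libraries lay below the plastic libraries at each dose without overlap, but the differences did not pass the test. The log2 change was -0.73 (SE 0.29, edgeR adjusted p = 0.435) at 100 nM, -0.56 (SE 0.29, 0.547) at 250 nM and -0.65 (SE 0.20, 0.171) averaged over doses, 1.57-fold lower. The average was called in 2 of 28 settings tried. These were no filter on low counts (-0.65, edgeR adjusted p = 0.00553) and limma-voom with sample weights (-0.45, limma-voom adjusted p = 0.0298). Without replicate 1 of gel at 250 nM, the lowest library, the 250 nM value was -0.27 (edgeR adjusted p = 0.851). In that library the mean length of the counted IGFBP7 transcripts was 1427 bases, against 1033 to 1039 in the other 11. IGFBP7 shares 270 exonic bases with POLR2B on the opposite strand, whose counts were 0.593% to 15.8% of its own. The strand setting of the counting is not given in the sources used here, so reads in the shared bases cannot be assigned with certainty.

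IGFBP3, the main IGF carrier of blood plasma, varied widely among libraries of the same group. On plastic at 100 nM it stood at 1109.7, 967 and 177 CPM, and on gel at 75.8, 336 and 292 CPM. At 250 nM the values were 82.8, 355 and 388 CPM on plastic and 18.8, 157 and 161 CPM on gel. Libraries of the 2 substrates overlapped at both doses, because replicate 3 of plastic at 100 nM and replicate 1 of plastic at 250 nM were low. Replicate 1 of gel was the lowest of its group at both doses. Over all genes tested, those 2 plastic libraries and replicate 1 of gel at 100 nM were alike, each group's mean taken out (r 0.309 to 0.39). The part of this likeness in the IGFBP3 values was not tested. The means were lower on gel, 235 ± 139 against 751 ± 502 CPM at 100 nM and 113 ± 81.2 against 276 ± 168 CPM at 250 nM (SD, n = 3 each). Averaged over doses the fitted difference was 2.81-fold, with a log2 change of -1.49 and a 95% interval of -2.86 to -0.12 (edgeR adjusted p = 0.349).

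IGFBP4, a substrate of PAPPA, was at 418, 309.6 and 148 CPM on plastic and 222, 297 and 328 CPM on gel at 100 nM. The values at 250 nM were 113, 273 and 335 CPM on plastic and 294, 241 and 271 CPM on gel. The gel libraries fell inside the range of the plastic libraries at both doses. The averaged log2 change was 0.06 with a 95% interval of -0.52 to 0.64 (edgeR adjusted p = 0.961), so changes of up to about that interval cannot be told from none, and its sign differed among the settings tried.

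IGFBP6, a binding protein with a preference for IGF2, was at 23.8, 15.5 and 20.4 CPM on plastic and 12.3, 12.2 and 11.5 CPM on gel at 100 nM. The 250 nM libraries had 41.4, 26.8 and 29.5 CPM on plastic and 35.0, 22.3 and 20.6 CPM on gel. Gel and plastic did not overlap at 100 nM (log2 change -0.72, SE 0.26, edgeR adjusted p = 0.386) and overlapped at 250 nM (-0.32, SE 0.27, 0.742). Replicate 1 of gel at 250 nM, the library with the GC trend, had the highest gel level of this GC-rich gene (64.1% GC in its longest transcript). Without that library the 250 nM value was -0.62 (edgeR adjusted p = 0.601), and with the GC trend of each library removed it was -0.68 (0.331). Replicate 1 was also the highest IGFBP6 library of each other group, and the part of the GC trend in these levels was not tested. Averaged over doses the log2 change was -0.52 (SE 0.19, edgeR adjusted p = 0.244). It was called with the GC trend removed (-0.67, edgeR adjusted p = 0.0411) and with limma-voom (-0.53, adjusted p = 0.0403).

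IGFBP2, which is neighbour to IGFBP5 on the chromosome, was counted in 3 to 86 reads a library. It stood at 11.5, 2.32 and 3.01 CPM on plastic and 0.544, 0.962 and 2.85 CPM on gel at 100 nM. Its 250 nM values were 4.55, 5.63 and 9.43 CPM on plastic and 4.30, 2.43 and 2.53 CPM on gel. The gel libraries were lower at 250 nM without overlap in CPM, and at 100 nM 1 gel library reached into the plastic range. The gap at 250 nM was narrow, from 4.30 CPM (13 reads, gel replicate 1) to 4.55 CPM (11 reads, plastic replicate 1), and the unscaled reads overlapped. The averaged log2 change was -1.49 (SE 0.50, edgeR adjusted p = 0.203). It was called in 1 of 28 settings tried, with no filter on low counts (-1.495, edgeR adjusted p = 0.0321). The 100 nM value of -1.91 became -0.83 without replicate 1 of plastic, the library with the most IGFBP2.

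PAPPA was read in every library at low levels per length. It stood at 219, 149.7 and 122 CPM on plastic and 469.6, 187 and 217 CPM on gel at 100 nM. The 250 nM levels were 215, 377 and 410.1 CPM on plastic and 270.1, 286 and 287 CPM on gel. At 100 nM the highest plastic library lay above 2 of the 3 gel libraries, and at 250 nM all gel libraries fell within the plastic range. The log2 change was 0.83 (SE 0.34, edgeR adjusted p = 0.449) at 100 nM and -0.25 (SE 0.34, 0.854) at 250 nM, and the difference between them was -1.08 (SE 0.48, 0.755). Without replicate 1 of gel, the 100 nM value was 0.30 (edgeR adjusted p = 0.898). PAPPA-AS1, a gene on the opposite strand, shares 2450 exonic bases with PAPPA, and its counts came to 8.92% to 52.8% of those of PAPPA, so the split of reads between them is uncertain.

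STC1, the stanniocalcin best known as a calcium and phosphate regulating hormone, was at 529.6, 482 and 775 CPM on plastic and 3744, 1481 and 2099 CPM on gel at 100 nM. At 250 nM it was at 1351, 1088 and 1155 CPM on plastic and 2341, 2212 and 2016 CPM on gel. Every gel library of either dose lay above every plastic library of either dose, and the 100 nM plastic libraries were the lowest of all. At 100 nM the means were 596 ± 157 and 2441 ± 1169.7 CPM (SD, n = 3 each), a log2 change of 2.04 (SE 0.30, edgeR adjusted p = 0.0131). At 250 nM they were 1198 ± 137 and 2189 ± 164 CPM, a log2 change of 0.87 (95% interval 0.25 to 1.49, edgeR adjusted p = 0.324), which did not pass. Averaged over doses STC1 rose 2.74-fold on gel (log2 change 1.45, SE 0.21, edgeR adjusted p = 0.00523) and was called in 28 of 28 settings tried.

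The log2 change of STC1 on gel was smaller at 250 nM than at 100 nM by 1.17, as the fitted difference was -1.17 (95% interval -2.03 to -0.30). Its unadjusted p was 0.012 and its edgeR adjusted p 0.755, so it did not pass. The difference was -0.72 (edgeR adjusted p = 0.897) when the library with the most STC1, gel at 100 nM replicate 1, was left out. At 100 nM the call stood in 23 of 29 settings. It ended without replicate 1 of plastic (edgeR adjusted p = 0.0864) or without replicate 2 of plastic (0.0933), with log2 changes of 1.97 and 1.90.

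STC2, a stanniocalcin linked to the cell's stress response, was at 1276, 665 and 811 CPM on plastic and 608, 639 and 696 CPM on gel at 100 nM. At the higher dose the values were 698, 982 and 943 CPM on plastic and 1519, 740.4 and 631 CPM on gel. The substrates overlapped at both doses, and the highest library of each dose was the one that stood apart in its ribosomal DNA share. The averaged log2 change was -0.18 with a 95% interval of -0.65 to 0.29 (edgeR adjusted p = 0.811). The intervals of STC1 (1.01 to 1.89) and STC2 did not meet, although the difference between the genes was not itself tested.

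**Figure D2:**
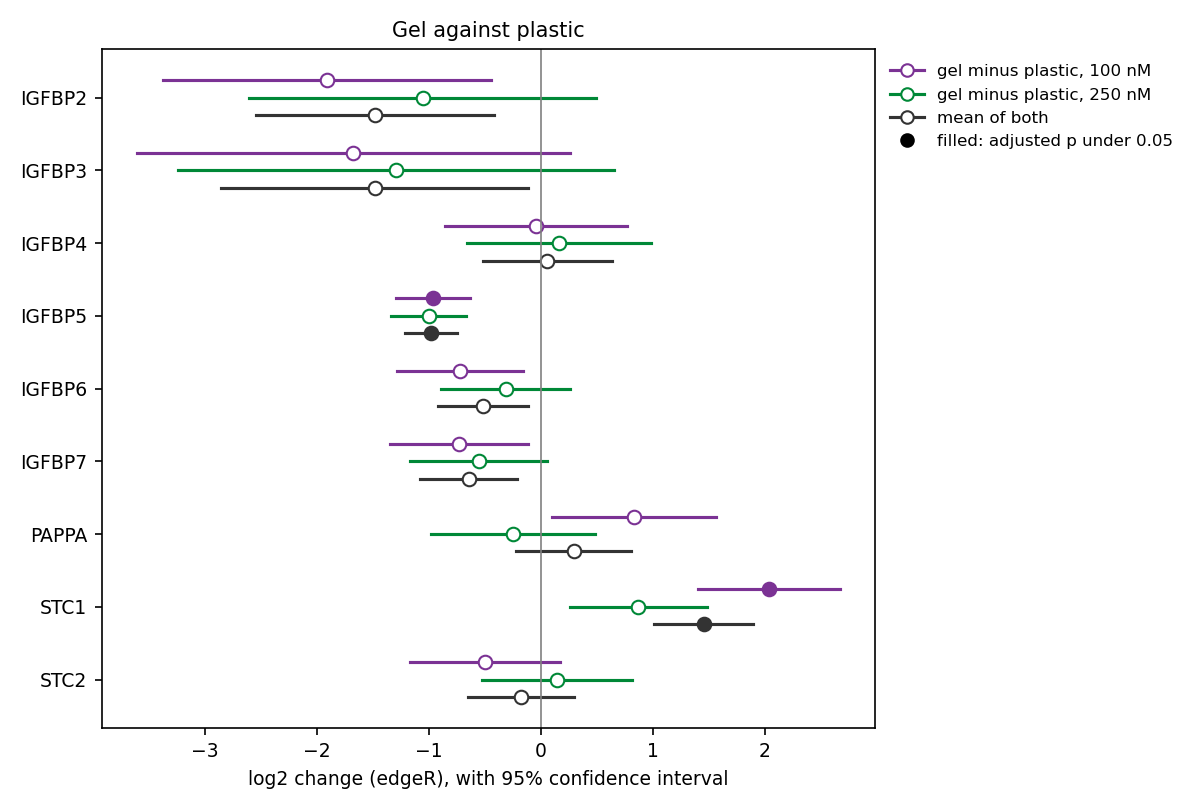
Log2 change of gel against plastic for each gene (x axis, edgeR), at 100 nM, at 250 nM and as the mean of both, with 95% confidence intervals; filled points passed the test (adjusted p under 0.05). IGFBP5 lies near -1 with short intervals in all 3 rows, STC1 lies above 0 in all 3, and IGFBP3 has the longest intervals.

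Across the whole table, 27 of 12329 genes were called at 100 nM (0.219%), and 2 of the 9 members, IGFBP5 and STC1, were among them. At 250 nM 1 gene was called (0.00811%) and 0 of the 9 members, of which IGFBP5 and STC1 had an unadjusted p under 0.05, as did 1224 genes in all (9.93%, edgeR). DESeq2 called 1 member there, beside 1.03% of all genes, and limma-voom 2, beside 1.31%. For the difference between the doses in the gel effect, 0 of 9 members and 0 of all genes (0%) were called by edgeR. At an unadjusted p under 0.05 there were 2 members, PAPPA and STC1, beside 771 genes (6.25%), and DESeq2 and limma-voom also called 0 members. In the average over doses 98 genes were called (0.795%), the same 2 members among them. Groups did not overlap for 4 of 9 members at 100 nM (IGFBP5, IGFBP6, IGFBP7 and STC1), against 19% of all genes tested. At 250 nM this held for 4 of 9 (IGFBP2, IGFBP5, IGFBP7 and STC1), against 15.1%. At both doses together, 3 of 9 did not overlap (IGFBP5, IGFBP7 and STC1), against 3.18%. The median log2 change of the members was -0.72 at 100 nM and -0.32 at 250 nM, beside -0.01 and -0.02 for all genes. The members were chosen with earlier results of these data known, so these counts describe them and are no test of the list.

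Summed over the 6 genes, binding protein transcripts came to 2430, 1723 and 1150 TPM on plastic and 699.9, 1088 and 1051 TPM on gel at 100 nM. At 250 nM the sums were 988.9, 1114 and 1037 TPM on plastic and 456.1, 716.5 and 787.5 TPM on gel. All 3 gel libraries were below all 3 plastic libraries at each dose. IGFBP7 made up 36.7% to 66.8% of the sum, with the low end in replicate 1 of gel at 250 nM and 52.7% to 66.8% in the others. In that library the counted IGFBP7 transcripts were longer (1427 bases, against 1033 to 1039), which lowers TPM at the same count. The part of this in the low share and sum was not tested. IGFBP5 made up 9.16% to 19.2%, IGFBP3 1.83% to 21.8% and IGFBP2 at most 0.693%.

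The balance of the 2 stanniocalcins was described by their ratio, which was not tested. The ratio of STC1 to STC2 in TPM was 0.457, 0.784 and 1.04 on plastic at 100 nM and 6.55, 2.55 and 3.26 on gel. At 250 nM it was 2.05, 1.22 and 1.35 on plastic and 1.70, 3.29 and 3.50 on gel. The substrates did not overlap at 100 nM, and at 250 nM replicate 1 of gel, with its high STC2, fell into the plastic range. The summed stanniocalcins exceeded PAPPA in TPM 14.1-fold to 39.6-fold in the 12 libraries, with the 2 lowest values in replicates 2 and 3 of plastic at 250 nM.

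**Figure D3:**
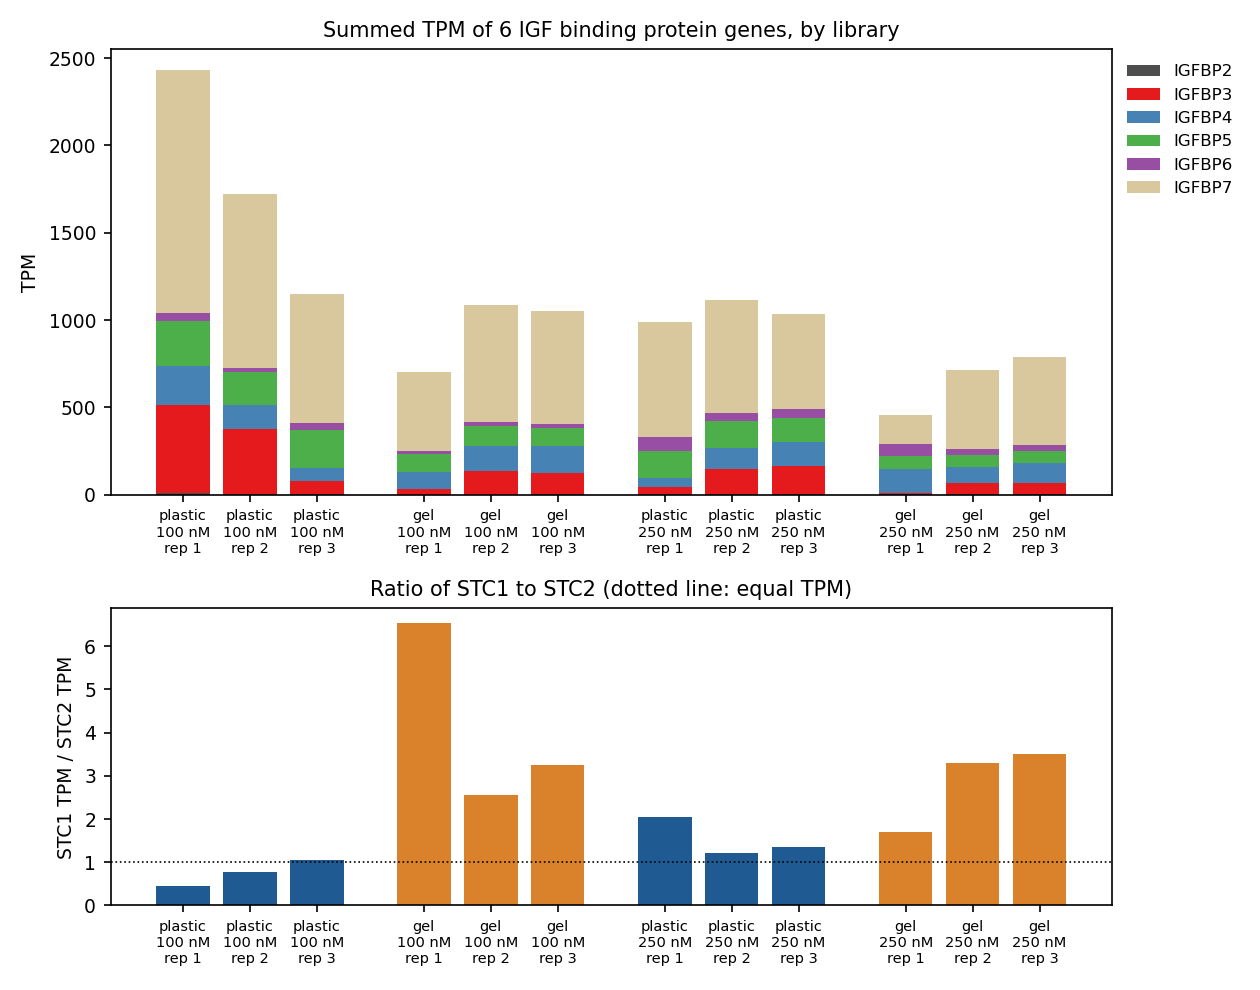
Upper bars: summed TPM of the 6 IGF binding protein genes in each of the 12 libraries (axis from 0), split by gene. Lower bars: ratio of STC1 to STC2 in TPM, with a dotted line at equal TPM. The sums run from 456.1 to 2430 TPM with IGFBP7 as the largest share in every library, and the ratio is highest, 6.55, in replicate 1 of gel at 100 nM.

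Between the doses, IGFBP6 was higher at 250 nM on gel and STC1 higher at 250 nM on plastic. Among all genes 13.8% were called on gel and 8.61% on plastic, where dose and library set cannot be told apart, and 1 of 9 members was called on each substrate. IGFBP6 was at 12 ± 0.428 CPM at 100 nM and 26.0 ± 7.86 CPM at 250 nM on gel (SD, n = 3 each), 2.17-fold higher (log2 change 1.12, SE 0.27, edgeR adjusted p = 0.0175). Replicate 1 of gel at 250 nM was its highest gel library. The call was lost without that library (log2 change 0.81, edgeR adjusted p = 0.0631) and without any 1 of the 3 gel libraries at 100 nM (0.0525 to 0.0539), and stood at 0.78 (0.026) with the GC trend removed. On plastic IGFBP6 was at 19.9 ± 4.16 and 32.5 ± 7.78 CPM, 1.63-fold apart without overlap (edgeR adjusted p = 0.106).

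STC1 on plastic was 2.01-fold higher at 250 nM (log2 change 1.01, SE 0.29, edgeR adjusted p = 0.0447), and on gel its log2 change with dose was -0.16 (SE 0.28, 0.744). The plastic call stood in 18 of 29 settings. It was lost without replicate 1 or 2 of plastic at 100 nM, any 1 replicate of plastic at 250 nM, replicate 3 of gel at 100 nM, or replicate 2 or 3 of gel at 250 nM (edgeR adjusted p from 0.0588 to 0.138). PAPPA on plastic had a log2 change of 1.03 (SE 0.34, edgeR adjusted p = 0.0762), and its antisense partner PAPPA-AS1 one of 2.24 (SE 0.40, 0.00836), which passed. PAPPA was called in 6 of 29 settings. Of these, 2 left out a library, replicate 1 of gel at 100 nM (edgeR adjusted p = 0.0298) or replicate 1 of plastic at 250 nM (0.0474). The others were no filter (edgeR adjusted p = 0.0018) and only the 6 libraries compared (0.0361), DESeq2 (DESeq2 adjusted p = 0.0346) and limma-voom (limma-voom adjusted p = 0.00244).

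IGFBP5 had a log2 change with dose of -0.45 (SE 0.15, edgeR adjusted p = 0.0841) on plastic and -0.48 (SE 0.16, 0.0521) on gel, with no overlap between doses on either substrate. Without replicate 1 of gel at 250 nM, the plastic comparison called IGFBP5 (edgeR adjusted p = 0.0376), IGFBP6 (0.0435) and IGFBP7 (0.0387) beside STC1. Without replicate 1 of plastic at 100 nM, the gel comparison called IGFBP5 too (0.039). The groups of 4 of 9 members did not overlap between doses on plastic and of 2 of 9 on gel, against 35.8% of all genes on each substrate.

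**Figure D4:**
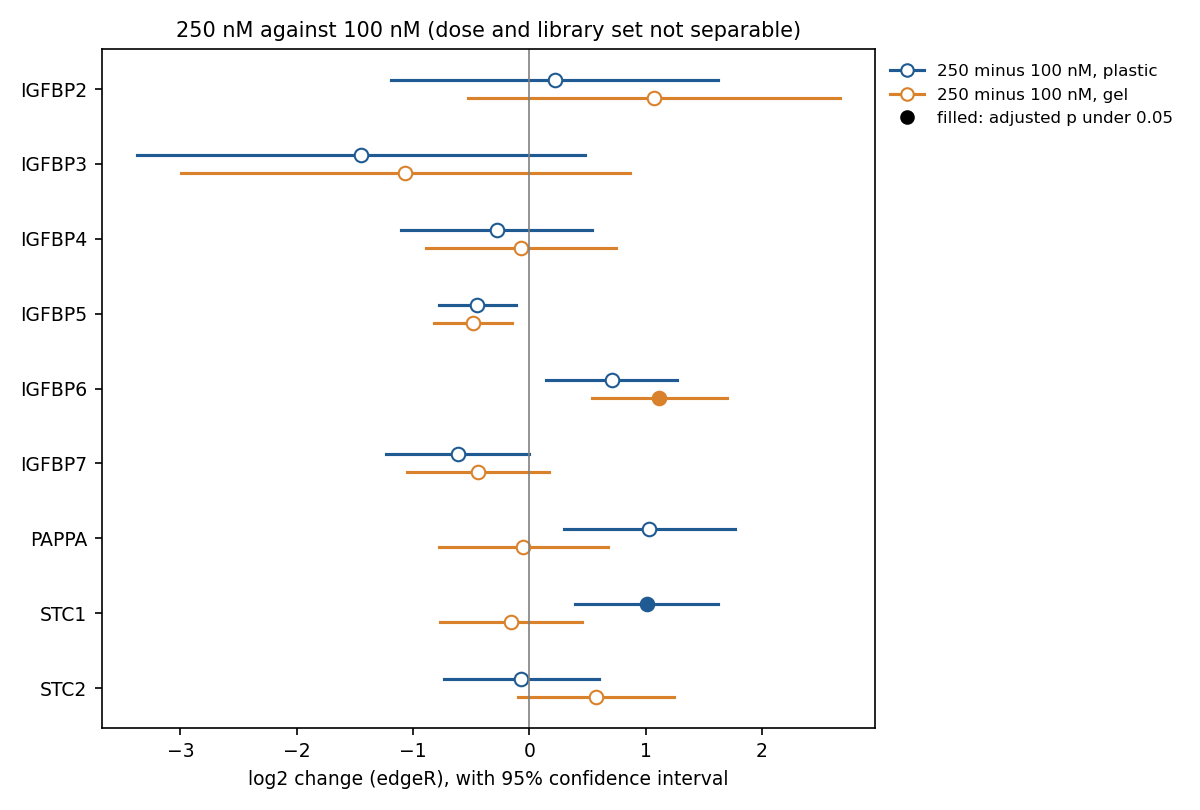
Log2 change of 250 nM against 100 nM for each gene (x axis, edgeR), on plastic and on gel, with 95% confidence intervals; filled points passed the test (adjusted p under 0.05). IGFBP6 on gel (1.12) and STC1 on plastic (1.01) are filled, and the dose groups are separate library sets.

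The members were also compared with one another and with other genes over the 12 libraries, as log2 CPM after taking out each dose's mean, which leaves the substrate difference in. IGFBP5 and STC1 ran opposite to each other (Pearson r = -0.854), and IGFBP3 and IGFBP7 together (0.902). PAPPA had r between -0.407 and 0.362 with each binding protein, and 0.53 with STC1. Among 8963 protein-coding genes of mean CPM at least 5, those most like IGFBP5 were COL1A1 (r = 0.985), the gene of a fibrillar collagen chain, LOXL2 (0.977), an enzyme that cross-links collagen, and CAV1 (0.96), the coat protein of caveolae. COL1A1 itself was 3.57-fold lower on gel at 100 nM and 3.94-fold lower at 250 nM, and called at both. The genes most like STC1 were SLC16A6 (0.962), SLC25A37 (0.958) and TRPS1 (0.952), and those most like PAPPA were TNFRSF11B (0.929), CSGALNACT1 (0.911) and NRG1 (0.906). For IGFBP3 they were CCDC80 (0.971), SKIC8 (0.953) and ARPC3 (0.95). For IGFBP7 they were CBX1 (0.956), GCSH (0.953) and PTPRB (0.953), for STC2 MARVELD1 (0.977), FKBP10 (0.942) and RAB5C (0.941). IGFBP4 was followed most closely by SLC6A6 (0.944), RCHY1 (0.937) and RPL26 (0.923), IGFBP6 by HLA-C (0.94), KRTAP1-5 (0.932) and DPYSL3 (0.932), and IGFBP2 by ZDHHC7 (0.907), TM7SF3 (0.894) and CD47 (0.892). These values share libraries, depth and the substrate groups, and are given as description.

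Of the growth factors themselves, IGF2 was tested and IGF1 was not, its counts being at most 12.21 in a library. IGF2 was at 39.5, 33.1 and 87.5 CPM on plastic and 84.9, 19.3 and 17.1 CPM on gel at 100 nM. At 250 nM it was at 51.6, 10.3 and 4.44 CPM on plastic and 10.5, 8.10 and 6.87 CPM on gel. These libraries overlapped widely, and the averaged log2 change was -0.88 (SE 0.59, edgeR adjusted p = 0.592). IGF1R, the signalling receptor, was lower on gel without overlap at both doses, at 33.2 to 34.6 CPM on gel and 35.9 to 50.2 CPM on plastic at 100 nM and 29.6 to 34.1 and 43.9 to 51.8 CPM at 250 nM. Its averaged log2 change of -0.42 (SE 0.13, edgeR adjusted p = 0.168) did not pass. IGF2R, which takes up IGF2 for breakdown, had an averaged log2 change of -0.15 (edgeR adjusted p = 0.908) and INSR, the insulin receptor, one of 0.10 (0.924). IGFBP1 and PAPPA2 were at most 4 and 7 counts in a library and were not tested.

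Beyond the members, 65 further genes of the pathway were listed, of which 50 were tested. On gel 1 rose and 1 fell at 100 nM, 0 were called at 250 nM, and 2 rose and 1 fell in the average, beside 0.219%, 0.00811% and 0.795% of all genes. Their median log2 changes were 0.10, -0.08 and 0.00. The gene that fell was CCN4, a matricellular protein related to the binding proteins, which was at 32.0, 16 and 28.3 CPM on plastic and 8.89, 4.67 and 6.27 CPM on gel at 100 nM, 3.86-fold lower (edgeR adjusted p = 0.045). Averaged over doses it was 3.83-fold lower (edgeR adjusted p = 0.0055). Those that rose are matrix metalloproteases that can also cut binding proteins. MMP1 was at 60.8 ± 16.5 CPM on plastic and 384 ± 151 CPM on gel at 100 nM (SD, n = 3 each), and 4.07-fold higher in the average (edgeR adjusted p = 0.000626). MMP3 was at 2.27, 0.465 and 0.475 CPM on plastic and 154, 11.3 and 22.0 CPM on gel at 100 nM, and passed in the average (log2 change 4.25, SE 0.73, edgeR adjusted p = 0.0207).

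The other genes of the lists did not pass for gel against plastic. None of 4 ligand and receptor genes tested was called in any of the 6 comparisons, nor any of 4 partners of the binding proteins, which included ITGB1 (averaged log2 change -0.14), TMEM219, a receptor for IGFBP3 (0.33), and ITGA5 (0.16). Of 10 tested proteases of binding proteins, PLAT (-0.06) and CTSD (0.76) were uncalled beside MMP1 and MMP3. Among 7 relatives, CCN1 (-1.12), CCN2 (-0.66) and HTRA1 (0.44) were not called in the average (edgeR adjusted p from 0.171 to 0.331). Of 23 intracellular signalling genes none passed for gel against plastic, with GRB2 at 0.25, RHEB at -0.18 and AKT2 at 0.08. Nor did any of the 3 IGF2 mRNA-binding genes, with IGF2BP1 at 0.13, IGF2BP2 at -0.12 and IGF2BP3 at 0.29.

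With dose, 4 of these 50 genes rose and 5 fell on plastic, and 0 rose and 4 fell on gel, 9 and 4 of 50 beside the 8.61% and 13.8% of all genes. They are named here after their values were seen. HTRA1, MMP1, FOXO3 and IGF2BP2 rose on plastic, and CCN1, ADAM9, PLAU, PIK3CA and AKT1 fell. On gel ADAM9, SOS1, PIK3CA and IGF2BP3 fell. These are whole-culture RNA levels, in which fewer cells of a kind and less RNA per cell cannot be told apart. Summed pericyte and smooth muscle markers ran at 122.2 to 229 TPM on plastic and 67.16 to 119.2 TPM on gel at 100 nM, led by CNN1 (mean 117.6 TPM), and at 163.6 to 217.5 and 116.2 to 137.7 TPM at 250 nM. Of these 10 markers 5 were tested, 0 passed for gel against plastic, 1 rose with dose on gel, and 0 were at 0 in all 12 libraries. Of 10 epithelial markers 4 were tested and 3 were at 0 throughout, and the sum was 37.17 to 161.8 TPM, led by KRT18. Their part in the results for IGFBP5 and STC1 was not tested.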

How the data were processed

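Polyadenylated RNA of 12 libraries of IMR90 fibroblasts was analysed from gene tables, 3 per group. Per the submitters' processing notes, the build was GRCh38 and the tools included STAR, Trimmomatic, DESeq2 1.36.0 and RSEM. The sources used here do not give other versions, the annotation release, the strand setting or any collapsing by molecular identifiers. Each deposited table holds RSEM's expected count for every gene and, in another column, its TPM, which RSEM scales by length and library total, per the file headers.

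Expected counts were rounded and fitted in R 4.3.3 with edgeR 4.0.16 (filterByExpr by the 4 groups, TMM, robust quasi-likelihood test, 1 mean per group, 8 residual degrees of freedom). This left 12329 genes, and P-values were adjusted by Benjamini-Hochberg over all of them in each of 6 comparisons and called under 0.05. The fit was tested on simulated data. With a common biological coefficient of variation of 0.299, small changes can be missed. Symbols were read from a supplied name table, coordinates from GENCODE 29 and promoters from RefSeq. STC1 and IGFBP7 are shown without sequence.

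The members, gene lists and alternatives were chosen with earlier results of these data known. From the lists, genes called for gel against plastic, the 3 highest by mean TPM in each list and 7 core genes (IGF1, IGF2, IGF1R, IGF2R, INSR, IGFBP1, PAPPA2) were named. Likeness was taken on log2 CPM with a prior count of 2. Alternatives used RLE and upper-quartile scaling, other filters, DESeq2 1.42.0, limma 3.58.1, a GC correction, thinning, a replicate block and left-out libraries. The limma fits were voom with sample weights, and trend on log2 TPM with pseudocounts of 1 and 0.1. Throughout, limma-voom means the fit with sample weights, which count the more variable libraries less. The fit without the robust option was added after the data were seen.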

Additional observations from a re-analysis of the deposited data

How the results depend on the processing

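IGFBP2 had the fewest counts of the members, and the 250 nM libraries hold fewer counts than the 100 nM libraries. Calls of the 9 genes moved with the setting as follows, and the cause was not tested. On gel at 100 nM 2 were called, against 0 with limma-trend on log2(TPM + 1) and with only the 6 libraries compared, 1 with a pseudocount of 0.1 and 1 without both libraries that stood apart. On gel at 250 nM 0 were called, against 2 with no filter and with limma-voom, and 1 with DESeq2, with the GC trend removed and without both such libraries. In the average 2 were called, against 4 with no filter and with limma-voom and 3 with the GC trend removed. On plastic 1 was called with dose, against 5 with limma-voom, 3 with no filter, DESeq2 and the GC trend removed, 2 with only 6 libraries, and 0 with both limma-trend fits. Without both libraries that stood apart, IGFBP6 was called (edgeR adjusted p = 0.0236) and STC1 was not (0.102). On gel 1 was called with dose, against 2 with the stricter filter, DESeq2, limma-voom, the GC trend removed and without both libraries that stood apart, and 0 with only 6 libraries. Both limma-trend fits called IGFBP5 there (limma-trend adjusted p = 0.0454 and 0.0406) and not IGFBP6 (0.0734 and 0.0758). Leaving out 1 library in turn gave 0 to 2 on gel at 100 nM, 0 to 1 at 250 nM, 2 to 2 in the average, 0 to 4 with dose on plastic and 0 to 2 with dose on gel. In the same order, the share of all genes called ran from 0.0429% to 0.87%, 0.00722% to 0.0439%, 0.275% to 1.92%, 0.854% to 16.3% and 5.86% to 16.1%. No member was called for the difference between doses in any setting. The share of all genes called moved too. At 250 nM it was 0.629% with no filter, 1.31% with limma-voom, 1.03% with DESeq2, 0.0406% with the GC trend removed and 0.0716% without both libraries that stood apart, against 0.00811%. In the average it was 1.63%, 6.5%, 3.13%, 0.86% and 1.98%, against 0.795%, and at 100 nM 0.802%, 3.63%, 1.32%, 0.243% and 0.549%, against 0.219%. With dose on plastic it was 5.09%, 25.7%, 13.5%, 9.45% and 17%, against 8.61%, and on gel 7.62%, 23.7%, 19.5%, 12.8% and 14.6%, against 13.8%. For the difference between doses no filter called 63 genes, and the other 4 called 0. At 100 nM limma-trend called 0.0568% and 0.073% of all genes (pseudocounts 1 and 0.1), and the fit of only 6 libraries 0.0802%. In the same order these shares were 5.69%, 4.82% and 14.6% with dose on plastic, and 11.7%, 10.4% and 4.56% with dose on gel. The stricter filter called 17.6% with dose on gel.

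Whether replicate numbers pair the libraries was looked at on log2 CPM with each group's mean taken out. The r values of same-numbered pairs and other pairs overlapped widely, so they do not settle it. The 18 same-numbered pairs had r from -0.236 to 0.323 (8 over 0.1, median 0.071). The 36 other pairs ran from -0.301 to 0.39 (median -0.051). Replicate 3 of plastic and replicate 1 of gel, both at 100 nM, had the highest r, 0.39. Replicate 1 of plastic at 250 nM had the next highest, 0.309 and 0.323 with those 2. What these libraries share was not tested. With the replicate number as a block, 2, 0, 2, 0, 1 and 1 members were called in the 6 comparisons, as without it. The block with the GC trend removed gave 3 with dose on plastic and 2 with dose on gel. Over all genes, the block gave 2 calls against 1 on gel at 250 nM. With the block, the dose change of STC2 on plastic was 0.0047 and that of PAPPA on gel 0.014. With the block and the GC trend removed, IGFBP4 was at -0.10 on gel at 250 nM, -0.077 in the average and -0.051 in the difference between doses, IGFBP6 was at -0.012 in that difference, and the dose change on gel was 0.033 for PAPPA and 0.094 for STC1.

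The remaining changes of sign were all in log2 changes that no setting called. With limma-voom, IGFBP4 was at 0.20 on gel at 100 nM, STC2 at -0.41 at 250 nM, and the difference between doses at -0.40 for IGFBP2, -0.20 for IGFBP4 and -0.18 for STC2. The dose changes with limma-voom were 0.23 for STC2 on plastic, and 0.33 for PAPPA and 0.067 for STC1 on gel. With the GC trend removed, IGFBP4 was at 0.00041 at 100 nM, -0.16 at 250 nM, -0.078 in the average and -0.16 in the difference, IGFBP6 was at -0.0094 in the difference, and STC1 was at 0.031 with dose on gel. With limma-trend, STC2 at 250 nM was at -0.018 and -0.019 (pseudocounts 1 and 0.1), and the differences between doses were 0.000614 for IGFBP5 and -0.068 for IGFBP7 with 1, and -0.0047 for IGFBP3 and -0.070 for IGFBP7 with 0.1. Without both libraries that stood apart, IGFBP4 was at 0.31 at 100 nM, STC2 at -0.37 at 250 nM, and the differences were -0.58 for IGFBP2, -0.24 for IGFBP4, -0.057 for IGFBP6 and -0.19 for STC2, with dose changes on plastic of 0.071 for IGFBP4 and 0.25 for STC2. Leaving out 1 library in turn also turned signs. On gel IGFBP4 ran from -0.37 to 0.31 at 100 nM, -0.19 to 0.47 at 250 nM and -0.12 to 0.24 in the average, and STC2 from -0.36 to 0.34 at 250 nM. The difference between doses ran from -0.22 to 1.78 for IGFBP2, -0.051 to 0.88 for IGFBP3, -0.15 to 0.52 for IGFBP4, -0.10 to 0.019 for IGFBP5 and -0.032 to 0.46 for IGFBP7. The dose change on plastic ran from -0.16 to 1.30 for IGFBP2, -0.61 to 0.074 for IGFBP4 and -0.25 to 0.25 for STC2, and on gel from -0.21 to 0.059 for IGFBP4, -0.29 to 0.49 for PAPPA and -0.42 to 0.30 for STC1.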
